A study of Mus musculus with 4 samples.

Results

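Fabp4 Col15a1 Cd36 fibroblasts are a rare set of lymph node stromal cells that carry transcripts of Fabp4, a cytoplasmic fatty acid chaperone, together with genes of a capillary-associated fibroblast programme. Members were chosen by a gate on raw counts of unique molecular identifiers (UMIs, each standing for 1 captured transcript molecule). A member had at least 500 detected genes, 1000 UMIs and at most 10% mitochondrial UMIs. It also had at least 1 UMI of Pdgfra, a receptor found on most fibroblasts, at least 2 of Fabp4, and at least 1 UMI in 2 or more of the 6 genes Col15a1, Itm2a, Cd36, Angptl1, Gask1b and Col5a3. Cells with more than 2 UMIs of Pi16, a marker of adventitial fibroblasts, or with any UMI of the endothelial genes Pecam1 and Cdh5 or of the leukocyte gene Ptprc were kept out. The gate held 153 of the 46638 cells that passed the cell filter, and of the 29779 cells with Pdgfra and without Pecam1, Cdh5 and Ptprc. Batch 1 gave 21 members in control 1 and 23 in Notch2 cKO 1, and batch 2 gave 68 in control 2 and 41 in Notch2 cKO 2. Values listed by library follow this order.

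The cells came from 4 droplet-based single-cell RNA sequencing libraries of live CD45-CD31- cells sorted from pooled inguinal, axillary and brachial nodes of C57BL/6 females aged 12 weeks. The question in the series title was how Notch2, a receptor read out by contact with ligand-bearing neighbours, takes part in the specialization of nodal fibroblasts. Control 1 was genotype Ccl19-Cre x R26R-EYFP and Notch2 cKO 1 carried Ccl19-Cre and R26R-EYFP together with Notch2 fl/fl, both of batch 1, pooled from 6 mice each and not littermates. Control 2 was genotype Notch2 fl/fl, with no Cre in that label although its title names Ccl19-Cre, and Notch2 cKO 2 was its littermate Ccl19-Cre x Notch2 fl/fl, both of batch 2 and pooled from 3 mice each. The 2 controls therefore carried different alleles, and the Cre, the reporter and the batch cannot be told apart between them. In the cKO the gene is deleted where the Ccl19 promoter has driven Cre, which marks reticular fibroblasts, and cells that never used that promoter keep Notch2. Each library is a pool, so a library is the replicate, with 2 per group, and p-values measure only the spread between these pooled libraries.

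Fibroblasts of this kind are known from many tissues. Type XV collagen, encoded by Col15a1, is laid down at the outer side of basement membranes around capillaries, muscle fibres and adipocytes, and CD36 and FABP4 take up and carry long-chain fatty acids. PPARγ, the transcription factor encoded by Pparg, drives adipocyte differentiation and switches on Fabp4, Cd36 and Lpl, and precursors that already express Pparg are called committed preadipocytes. Lymph nodes lie within adipose tissue, and the reticular fibroblasts inside them make the chemokines CCL19 and CCL21 that guide T cells.

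The libraries differed in depth by batch, and the 2 batches were counted by different versions of the counting program. The labels and file headers do not say whether reads in introns were counted in both. Some genes differed widely between batches: Hdac9 stood at 34.4 and 57.9 CPM in the other Pdgfra-detected cells of batch 1 and at 1047 and 1942 CPM in those of batch 2. A level of batch 1 is therefore not to be set against one of batch 2, and the main tests compared classes within libraries and genotypes within batches. Batch 1 held 21533049 and 25644596 UMIs and batch 2 held 119002408 and 108144616. The members had medians of 2590, 3360, 8413.5 and 8824 UMIs, above the 2229.5, 3120, 7111 and 8674 of the other Pdgfra-detected cells. Pairs of libraries shared 21 to 57 cell barcodes, at most 0.546% of the smaller library. Counts were summed over the cells of a class within a library, and levels are given as UMIs of a gene in 1000000 UMIs of that sum (CPM). Members were compared with the other 29626 Pdgfra-detected cells and with 2 classes inside them, the 475 Pi16-high cells (at least 3 UMIs of Pi16) and the 18048 Ccl21a-high cells (at least 10 UMIs of Ccl21a and none of Fabp4).

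The genes of the gate are described without a test, since they chose the members. Fabp4 (chromosome 3, 10204088 to 10208576, minus strand, mm10) stood at 1253, 1761, 946 and 1002 CPM in the 4 libraries. In the other Pdgfra-detected cells it stood at 3.96, 2.11, 22.7 and 10.8 CPM. Col15a1 stood at 1039, 1157, 745 and 521 CPM in the members of the same libraries, and 18 of 21, 20 of 23, 57 of 68 and 35 of 41 members had a UMI of it. Col5a3, a minor chain of fibrillar type V collagen, was found in 18, 23, 64 and 39 members, at least as many as any other of the 6 genes in each library. Itm2a, a membrane protein found in mesenchymal precursors, stood at 363, 399, 221 and 141 CPM.

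Cd36, which gives the cells part of their name, was detected in a minority of members of 3 libraries, 3 of 21, 7 of 23 and 21 of 68, and in 28 of 41 members of Notch2 cKO 2. Its levels were 49.5, 270, 118 and 212 CPM, and no more than 6.02 CPM in any library of the other, Pi16-high or Ccl21a-high cells. Fabp4, Col15a1 and Cd36 are genes of the gate, so these levels describe the choice of members and say nothing for their name. Of matrix genes outside the gate, Dcn, a small proteoglycan of connective tissue, stood at 8859 to 13109.5 CPM and Col1a1, a chain of type I collagen, at 1198 to 3933 CPM. These levels were not set against cells without Pdgfra, so they do not test the fibroblast identity.

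The borders of the gate are not sharp on the Fabp4 side. Members with exactly 2 Fabp4 UMIs numbered 8, 7, 17 and 8, and cells with 1 Fabp4 UMI that met every other term numbered 19, 23, 22 and 16. Lpl, encoding lipoprotein lipase and not part of the gate, stood at 4480, 8978, 4977 and 3726 CPM just inside that border and at 3742, 4886, 1447 and 1758 CPM just outside it. A further 93, 164, 377 and 314 cells had 2 or more of the 6 genes and no Fabp4 UMI, with Lpl at 2781, 3604, 1053 and 1079 CPM. On the side of the 6 genes, cells with Fabp4 and 1 of the 6 numbered 52 in control 2 and 28 in Notch2 cKO 2, with Lpl at 283 and 439 CPM and Rgs5, a pericyte gene, at 1338 and 1309 CPM. The 15 and 9 members of these libraries with 2 of the 6 had more Lpl, 1414 and 1217 CPM, but Rgs5 at 1478 and 833 CPM, so members at this border carried the pericyte gene too.

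Fabp4 is also a gene of pericytes and endothelium, so its level in cells outside the fibroblasts was measured. Among cells without Pdgfra that had at least 5 UMIs of Rgs5, 2 or more Fabp4 UMIs were found in 4.21%, 28.2%, 42.7% and 43.4%, at median depths of 2841, 2434, 4692 and 4987 UMIs. Leukocyte-marked cells, without Pdgfra and with at least 2 UMIs of Ptprc, should lack the gene: the share was 1.85% of 216 cells in control 2 and 0 of 183 in Notch2 cKO 2, which allows up to 1.64%, at median depths of 4370.5 and 3726 UMIs, while batch 1 had only 7 and 17 such cells. In Pdgfra-detected cells with at least 10 Ccl21a UMIs it was 0.168%, 0.119%, 1.35% and 0.852%. All members have 2 or more by the gate, so their own share cannot be set against this background.

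Markers of other cell types were summed over whole lists in the members. The 15 blood endothelial markers summed to 66.0, 51.4, 121 and 92.4 CPM in the members and to 85.0 to 112 CPM in the other Pdgfra-detected cells. Flt1, Cldn5, Tie1, Sox17, Gpihbp1, Ptprb, Robo4 and Rasip1 were at 0 in the members of every library. Of 6 endothelial markers that could be tested against the other cells, Esam was higher (log2 2.06, edgeR adjusted p under 0.05) and 0 were lower. Of 4 tested against Ccl21a-high cells, Esam (3.38) and Tek (1.15) were higher and 0 were lower. Of 2 tested against Pi16-high cells, Tek was lower (-2.57) and 0 were higher. Lymphatic endothelial markers were at 0 in both libraries of batch 1 and at 8.18 and 18.9 CPM in control 2 and Notch2 cKO 2, leukocyte markers reached at most 16.5 CPM and epithelial markers at most 6.55 CPM. The 6 Schwann markers summed to 165, 270, 198 and 158 CPM in the members, above the 128, 125, 119 and 95.9 CPM of the other cells. In both libraries of batch 1, 5 of the 6 were at 0 in the members. Of 4 that could be tested Cdh19 was higher (log2 2.78, edgeR adjusted p under 0.05) and 0 were lower. The 8 pericyte markers summed to 247 and 116 CPM in batch 1 and to 833 and 779 CPM in batch 2, and the 8 smooth muscle markers to 165 and 116 CPM in batch 1 and to 1010 and 1193 CPM in batch 2. In the other Pdgfra-detected cells these 2 lists stood at 699 to 1056 and 873 to 1632 CPM, above the members of the same library in all 4. Single pericyte genes went both ways: of the 8, Higd1b (2.28, SE 0.57), Cox4i2 (2.73, SE 0.43) and Ndufa4l2 (2.80, SE 0.30) were higher in the members than in the other cells on the log2 scale and 2, Rgs5 (-1.24) and Abcc9 (-1.44), were lower, with a median of 0.72 (edgeR, adjusted p under 0.05). Against Ccl21a-high cells the same 3 were higher, with a median of 1.36. At least 3 Rgs5 UMIs were found in 1, 0, 14 and 12 members.

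**Figure D1:**
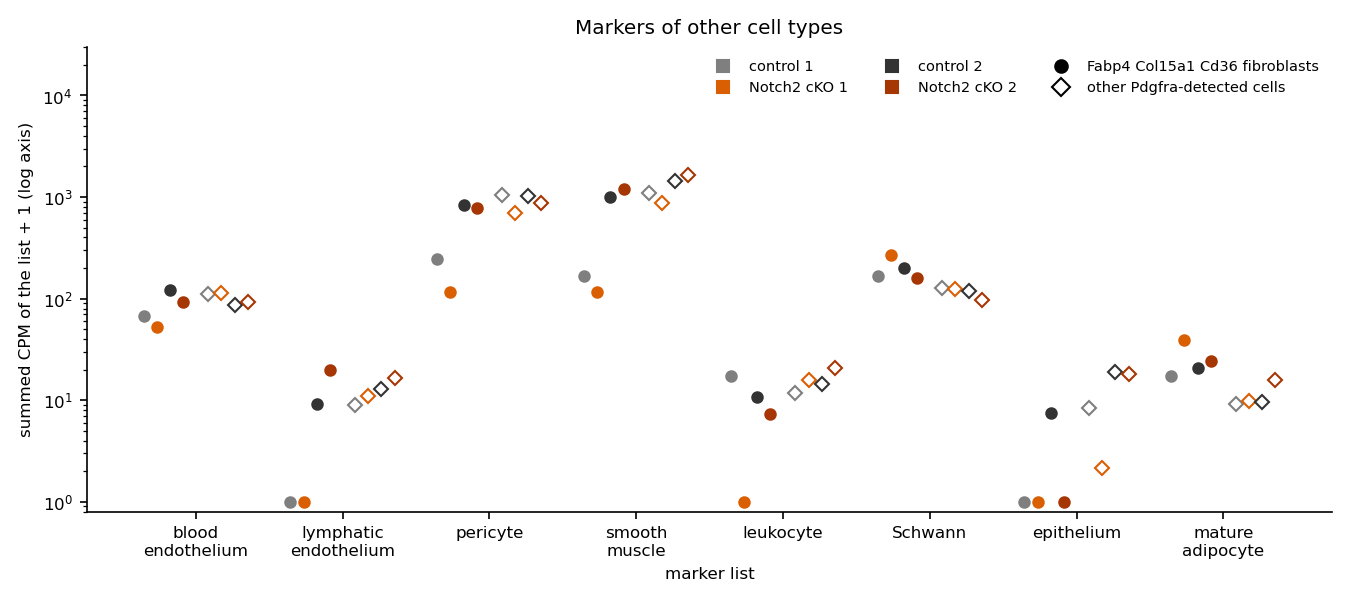
Summed level of each marker list, as CPM + 1 on a log axis, with 1 point per library; filled circles are the Fabp4 Col15a1 Cd36 fibroblasts and open diamonds the other Pdgfra-detected cells. Pericyte and smooth muscle markers were at 116 to 247 CPM in the members of batch 1 and at 779 to 1193 CPM in those of batch 2, while the blood endothelial list stayed between 51.4 and 121 CPM.

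A second feature set some members apart. Ccl21a, encoding the T-zone chemokine, fell into separate ranges, with either at most 9 UMIs or at least 16 in a member. Members with at least 10 numbered 1 of 21, 1 of 23, 7 of 68 and 13 of 41. In Notch2 cKO 2 their median depth was 16650 UMIs against 7710 in the members with fewer, and in control 2 it was 13819 against 7918. Members among the cells with the highest Scrublet doublet scores numbered 3, 1, 17 and 15, of 21, 23, 68 and 41, against 8.58%, 7.06%, 15.1% and 10.6% of all Pdgfra-detected cells. Whether these are droplets with 2 cells was not tested. Genotype results that rest on the members with at least 10 Ccl21a UMIs are given with those members' part of the UMIs, with levels without them, or both.

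Members made up 0.428% of the Pdgfra-detected cells in control 1 (95% Clopper-Pearson interval 0.265 to 0.654%) and 0.361% in Notch2 cKO 1 (0.229 to 0.541%). In batch 2 they made up 0.668% of control 2 (0.519 to 0.846%) and 0.493% of Notch2 cKO 2 (0.354 to 0.668%). The intervals, which cover counting error only, overlap within each batch. The cKO share was 0.843 times the control share in batch 1 and 0.737 times in batch 2. The mean was 0.548% ± 0.170 (SD) in control and 0.427% ± 0.0932 in cKO, a difference of -0.121 percentage points (2-sided exact permutation test, p = 0.667, where 0.333 is the smallest p that 2 against 2 libraries can give). With all cells that passed the filter as the denominator the ratio was 1.27 in batch 1 and 0.804 in batch 2. The gate counts UMIs and so depends on depth. In a further count, cells with fewer than 1500 UMIs were left out and the rest were thinned to 1500 UMIs. Every gene term of the gate was then applied again. The shares were 0.310%, 0.183%, 0.196% and 0.108%, resting on 10, 9, 10 and 5 members among 3225, 4913, 5109 and 4627 Pdgfra-detected cells. In this smaller set of cells the higher share of batch 2 was no longer seen.

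**Figure D2:**
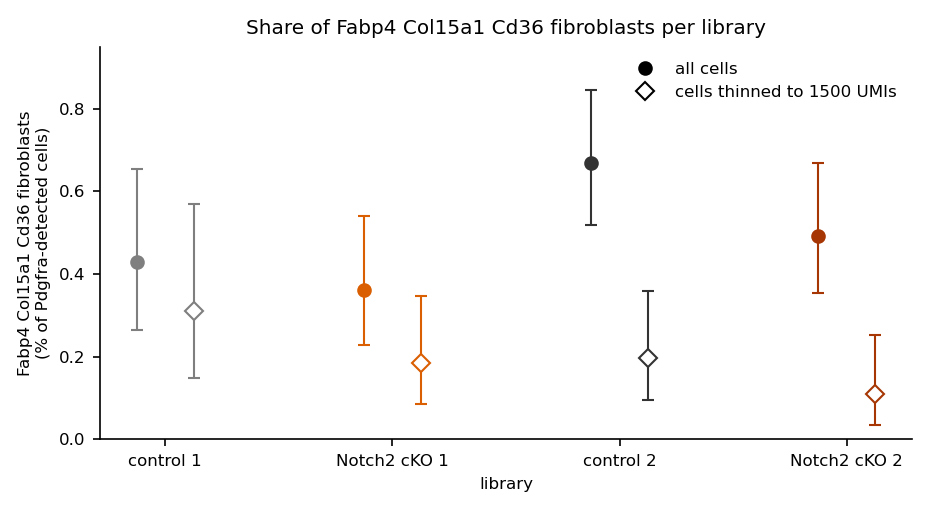
Share of Fabp4 Col15a1 Cd36 fibroblasts among Pdgfra-detected cells in each library, in percent. Filled circles are all cells and open diamonds are cells thinned to 1500 UMIs, with shallower cells left out and the gate applied again. Bars are 95% Clopper-Pearson intervals. The unthinned shares run from 0.361% to 0.668% and the thinned ones from 0.108% to 0.310%, with overlapping intervals of control and Notch2 cKO in each batch.

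Compared with the other Pdgfra-detected cells, the members held more transcript of Pparg and Lpl, of most basement membrane and fibrillar matrix genes listed, and of interferon response genes such as Ifit1 and Ifit3. They held less of most listed T-zone reticular, inflammatory and complement genes, and of the class II antigen presentation genes. In all, 788 of 13922 genes tested were higher in the members (5.66%) and 1429 were lower (10.3%) at an adjusted p under 0.05 (edgeR quasi-likelihood test, Benjamini-Hochberg adjustment, library as a term). The median log2 fold change over all genes tested was -0.14. Scaling by library totals in place of TMM factors moved it by 0.224, and the share of higher genes among those called from 35.5% to 54.6%. Of the 2217 called, 1765 had the same sign in all 4 libraries, as did 33.1% of all genes tested. Without control 2, 468 were higher and 682 were lower. The genes of the gate were left out of this test. The other genes were measured in the same cells and the gate's genes had been picked for marking a cell population, so these counts describe how far the gated cells lie from the rest and are no independent evidence that they form a type. The fits moderate each gene's spread towards that of all genes, and log2 fold changes are given with their standard error (SE).

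Of 18 genes of preadipocytes and adipogenesis 6 were higher and 3 were lower, with a median log2 fold change of 0.03. Pparg stood at 33.0, 64.3, 157 and 149 CPM in the members and at 0.759, 0.704, 3.25 and 2.58 CPM in the other cells, a log2 fold change of 5.55 (SE 0.28). Every library of the members lay above every library of the other cells, and a Pparg UMI was found in 2 of 21, 3 of 23, 41 of 68 and 20 of 41 members. After thinning to 1500 UMIs, 5.26%, 4.55%, 20.6% and 19.5% of members and at most 0.431% of the other cells kept a Pparg UMI, and unthinned the share of the other cells was 0.184% to 1.71%. Ebf2, a transcription factor that marks adipocyte precursors, stood at 165, 283, 633 and 378 CPM against 8.43 to 45.8 CPM (3.64, SE 0.22). Bmper, an extracellular regulator of BMP ligands, stood at 132, 180, 332 and 195 CPM against 5.65 to 43.6 CPM (3.30, SE 0.22), and Aoc3, the adipocyte and vascular amine oxidase, was higher by 1.84 (SE 0.20). Dlk1, a preadipocyte gene also called Pref-1, passed the test as well but rested on 15 UMIs, at 22.9 CPM in control 2, 2.10 in Notch2 cKO 2 and 0 in both libraries of batch 1. The 3 lower genes were Cebpb, an early adipogenic factor, the adhesion molecule Icam1 and the homeobox gene Meox2.

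Genes of lipid uptake and storage were higher in part. Of 20 genes 5 were higher and 1 was lower, with a median of 0.40. Lpl, whose product releases fatty acids from lipoproteins at capillary walls, stood at 4749, 6157, 4153 and 2960 CPM in the members against 691, 856, 408 and 615 CPM in the other cells (2.52, SE 0.19). It was detected in 20 of 21, 23 of 23, 67 of 68 and 41 of 41 members, and after thinning in 92.7% to 100% of members and 36.9% to 56.9% of the other cells. Angptl4, a secreted inhibitor of that lipase and a PPAR target, stood at 363, 463, 232 and 416 CPM against 35.8 to 90.6 CPM (2.26, SE 0.19). Plin2, a coat protein of lipid droplets, stood at 181, 321, 183 and 326 CPM against 54.9 to 89.2 CPM (1.61, SE 0.20), and Scd1, a fatty acid desaturase, was higher by 2.54 (SE 0.28). Apoe, a lipid carrier made by reticular cells, was the lower gene, at 1067 to 6893 CPM against 8633 to 24563 CPM (-2.07, SE 0.20). Genes of mature adipocytes were at low levels. Plin4, which encodes a lipid droplet coat protein, was higher in the members (3.80, SE 0.48), on 1, 2, 9 and 4 UMIs or 16.5, 25.7, 14.7 and 8.40 CPM against 0.563 to 0.912 CPM. It was 1 of 3 genes of that list that could be tested, with 0 lower. Adipoq, encoding adiponectin, had 0 UMIs in 3 libraries and 1 UMI in Notch2 cKO 2, Lep and Cfd had 0 in all 4, and the 9 genes of that list summed to 16.5 to 38.6 CPM in the members against 8.18 to 14.7 CPM in the other cells.

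Basement membrane genes were higher almost throughout their list. Of 15 genes 12 were higher and 0 were lower, with a median of 1.61 against the -0.14 of all genes tested. Col4a1, a chain of the type IV collagen network, stood at 2655, 2867, 1765 and 1614 CPM against 494, 402, 506 and 433 CPM (1.94, SE 0.19). Lama2, a laminin chain, stood at 231, 553, 537 and 456 CPM against 8.51 to 87.1 CPM (3.05, SE 0.21). Nid1, which links laminin to type IV collagen, stood at 710 to 1649 CPM against 94.1 to 154 CPM (2.70, SE 0.19). Hspg2, encoding perlecan, and Col18a1, encoding the collagen whose fragment is endostatin, were higher by 2.26 (SE 0.19) and 2.09 (SE 0.20). Lamc3, a laminin gamma chain outside the list, had the largest fold change of the genes named by rule in this comparison, at 231, 64.3, 118 and 79.8 CPM against 0.169 to 1.23 CPM (6.91, SE 0.35). For these genes the libraries of the members and of the other cells did not overlap.

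Fibrillar matrix was higher in 14 and lower in 5 of 21 genes, with a median of 1.14. Col3a1 stood at 7289, 9705, 4423 and 3294 CPM against 771 to 1106 CPM (2.22, SE 0.19). Lum, a proteoglycan that spaces collagen fibrils, stood at 2325, 2905, 1953 and 1298 CPM against 160 to 330 CPM (2.98, SE 0.19), and Col6a3, a chain of the microfibrillar type VI collagen, was higher by 2.70 (SE 0.19). The lower genes were Col14a1, Mfap4, Eln, Fn1 and Mgp, which encode a fibril-associated collagen, a microfibril glycoprotein, elastin, fibronectin and matrix Gla protein. Mfap4 rested on 3 UMIs in the members, for a ratio of 0.221 with a 95% counting interval of 0.0456 to 0.648.

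Further higher genes encode secreted and surface proteins. Sparcl1, a matricellular protein of perivascular cells, stood at 1632, 3445, 1211 and 929 CPM against 42.7, 115, 86.2 and 51.0 CPM (4.22, SE 0.21). Fgf10, a ligand for epithelium and for adipocyte precursors, stood at 544, 180, 352 and 418 CPM against 22.8 to 52.1 CPM (2.93, SE 0.20). Sparcl1 and Fgf10 belong to a list of growth factor and vascular genes that went both ways. Of 22 tested 6 were higher and 9 were lower, among them Vegfa (-1.25), Vegfc (-1.37) and Apln (-2.40), with a median of -0.19. Adam23, a surface protein of the ADAM family, stood at 313, 141, 115 and 130 CPM against 2.03 to 2.86 CPM (5.59, SE 0.26). Cxcl14, a chemokine, stood at 775, 566, 196 and 179 CPM against 4.07 to 70.3 CPM (3.76, SE 0.23). Frmd4b (4.31, SE 0.22), Thy1 (3.95, SE 0.30), Adam19 (3.82, SE 0.24), Spon2 (3.44, SE 0.20) and Penk (3.36, SE 0.21) were also named by rule. Penk encodes a precursor of enkephalin peptides and Thy1 a surface glycoprotein widely used to sort fibroblasts.

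**Figure D3:**
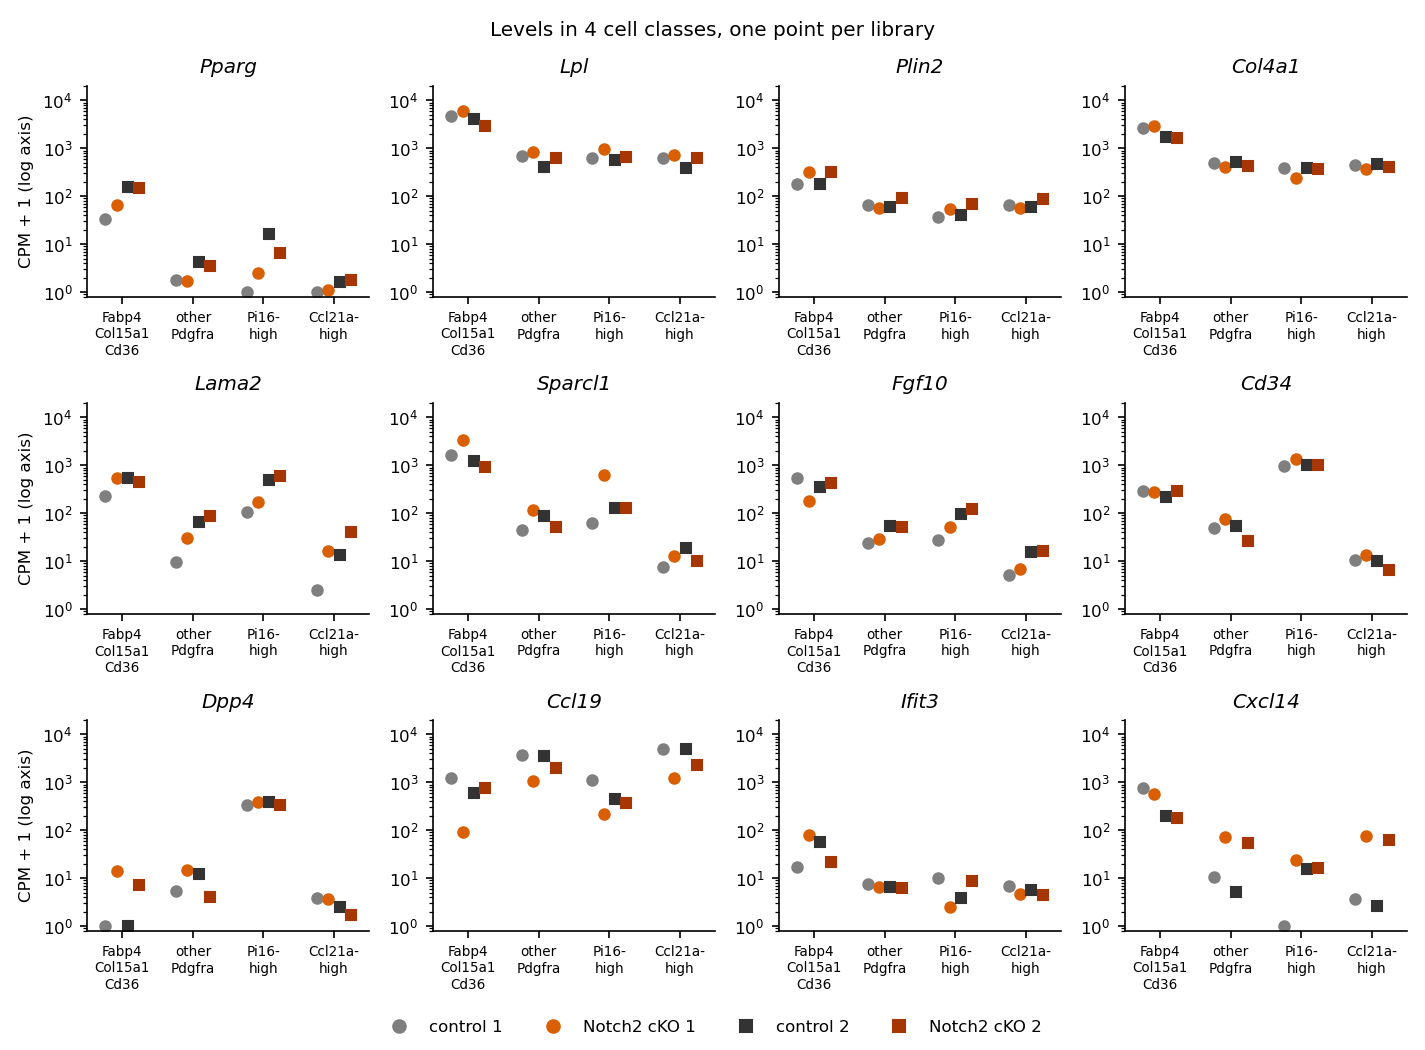
Levels of 12 genes outside the gate in 4 cell classes, as CPM + 1 on a log axis, with 1 point per library. Pparg, Lpl, Plin2, Col4a1, Sparcl1, Fgf10, Ifit3 and Cxcl14 lie higher in the Fabp4 Col15a1 Cd36 fibroblasts than in the other 3 classes in every library of the same name, whereas Cd34 and Dpp4 are highest in Pi16-high cells and Ccl19 in Ccl21a-high cells.

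Genes of the T-zone reticular programme were lower. Of 14 genes 12 were lower and 0 were higher, with a median of -2.08. Ccl19 stood at 1204, 90.0, 594 and 750 CPM against 3762, 1061, 3467 and 2007 CPM (-2.37, SE 0.21). Ccl21a stood at 1121, 424, 1326 and 3977 CPM against 8372 to 12713 CPM (-3.20, SE 0.22). In control 1 59 of the 68 UMIs of Ccl21a and in Notch2 cKO 1 23 of the 33 lay in 1 member each. Il7, the T cell survival cytokine, stood at 16.5, 12.9, 8.18 and 42.0 CPM against 146 to 197 CPM (-3.09, SE 0.29). Grem1, a BMP antagonist of reticular cells (-2.73, SE 0.25), the chemokine Cxcl12 (-2.30, SE 0.20), the surface enzyme Bst1 (-2.34, SE 0.24) and the adhesion molecule Vcam1 (-1.38, SE 0.20) were lower too. Clu, which encodes a secreted chaperone (-2.84, SE 0.22), and Fmod (-2.76, SE 0.26), Ltbp2 (-2.68, SE 0.28), Ltc4s (-2.61, SE 0.30), Dsg2 (-2.86, SE 0.31) and Serpina1b (-3.78, SE 0.42) were further genes named in this direction, with Igkc (-2.78, SE 0.33), an immunoglobulin transcript of plasma cells.

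Immune genes divided. Of 12 inflammatory genes 10 were lower and 2 were higher, with a median of -2.01. Ptgs2, which starts prostaglandin synthesis, stood at 16.5, 38.6, 22.9 and 79.8 CPM against 139 to 575 CPM (-2.89, SE 0.28), and the 2 higher genes were the chemokines Cxcl14 and Ccl11 (1.07, SE 0.19). Of 8 complement genes 6 were lower, among them C3 (-1.77, SE 0.19). Of 10 antigen presentation genes 5 were lower, among them Cd74, the invariant chain (-2.47, SE 0.25), and H2-Ab1 (-2.26, SE 0.25). Of 12 interferon response genes 7 were higher, with a median of 0.64. Ifit1, an antiviral RNA-binding protein, stood at 198, 347, 141 and 56.7 CPM against 4.88 to 10.9 CPM (3.91, SE 0.22). Isg15, a ubiquitin-like interferon product, stood at 82.4, 180, 174 and 170 CPM against 26.3 to 55.5 CPM (1.97, SE 0.20). Ifit3 stood at 16.5, 77.1, 55.7 and 21.0 CPM against 5.34 to 6.57 CPM (2.62, SE 0.35). Without cells that had an endothelial or pericyte marker, Ifit3 was higher by 0.73 with an adjusted p of 0.642 (edgeR). Any UMI of such a marker, Rgs5 among them, dropped a cell. This left 18, 19, 19 and 13 members and 1104, 1768, 617 and 500 of the other cells. Ifit3 passed in the other 12 of 13 alternatives, with the lowest adjusted p at 7.27e-14. Without the dropped cells 4 interferon genes were higher and 2 were lower.

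Compared with Pi16-high cells, a class of adventitial fibroblasts, the members held far less of the adventitial progenitor genes such as Dpp4 and Sema3c and of fibronectin. They held more Lpl, Pparg, type IV collagen and interferon response transcripts. Of 8124 genes tested 398 were higher in the members (4.90%) and 651 were lower (8.01%), with a median of -0.02 over all genes. Scaling by library totals moved that median by 0.0992 and the share of higher genes among those called from 37.9% to 48.7%. Without control 2, 169 were higher and 261 were lower. The genes of the gate, Pi16 among them, were left out, and both classes were set by Pi16, so the same limit holds.

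All 15 genes of the adventitial progenitor list that were tested were lower in the members than in Pi16-high cells, with a median of -2.99. Dpp4, a surface peptidase of these progenitors, stood at 0, 12.9, 0 and 6.30 CPM against 331, 385, 397 and 343 CPM (-6.78, SE 0.43). Sema3c, a guidance ligand (-7.16, SE 0.32), the complement inhibitor Cd55 (-4.34, SE 0.26), the surface protein Ly6c1 (-3.99, SE 0.28) and Anxa3 (-3.94, SE 0.24) were lower as well. Cd34, a sialomucin of vessels and progenitors, was lower than in Pi16-high cells (-2.15, SE 0.18) and higher than in the other Pdgfra-detected cells (2.30, SE 0.20). Its levels showed this middle place, at 297, 283, 216 and 284 CPM in the members, 983 to 1375 CPM in Pi16-high cells and 25.1 to 76.4 CPM in the other cells. Igfbp6 had the same middle place (-2.58, SE 0.22, and 2.23, SE 0.20), as did Cd248. Against the other Pdgfra-detected cells 7 of 13 genes of the list were higher and 3 were lower.

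Some genes of Pi16-high cells were nearly absent from the members. Mrgprg, an orphan receptor gene, had 0 UMIs in the members and 1699 in Pi16-high cells, at least 227-fold lower when the members' sum is set to 3 counts, and Aldh1a3, an enzyme of retinoic acid synthesis, had 0 and 398 UMIs, at least 53.1-fold lower. Smpd3, a sphingomyelinase, had 3 and 3526 UMIs, a ratio of 0.00213 with a 95% counting interval of 0.000438 to 0.00622. Car8, Ston2 and Sema3d had 1 UMI each in the members and 675, 400 and 296 in Pi16-high cells. Fn1 stood at 216 to 848 CPM against 3057 to 10988 CPM (-3.73, SE 0.14), Fbn1, the core protein of microfibrils, was lower (-2.51, SE 0.18), as was Mgll, a monoacylglycerol lipase (-4.80, SE 0.44).

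The lipid and basement membrane genes set the members apart from Pi16-high cells as well. Of 15 adipogenic genes 5 were higher and 1 was lower, of 17 lipid genes 5 were higher and 3 were lower, and of 14 basement membrane genes 8 were higher and 1 was lower, with medians of 0.38, 0.73 and 0.66. Lpl was higher by 2.51 (SE 0.15), Plin2 by 2.21 (SE 0.22), Angptl4 by 2.01 (SE 0.21), Bmper by 2.58 (SE 0.28) and Aoc3 by 2.35 (SE 0.26). Pparg stood at 0, 1.50, 15.4 and 5.66 CPM in Pi16-high cells (3.67, SE 0.33), so it was not absent there. Col4a1 was higher by 2.50 (SE 0.19), Col4a2 by 2.60 (SE 0.22) and Col18a1 by 2.71 (SE 0.26). Lamc3 (5.28, SE 0.42), Cxcl14 (4.08, SE 0.29), Adam23 (3.41, SE 0.29), Sparcl1 (2.97, SE 0.22), Gsc (3.09, SE 0.31) and Slc24a3 (2.87, SE 0.33) were named by rule. Gsc encodes a homeobox factor, with 148, 77.1, 83.5 and 109 CPM against 7.52 to 10.8 CPM.

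**Figure D4:**
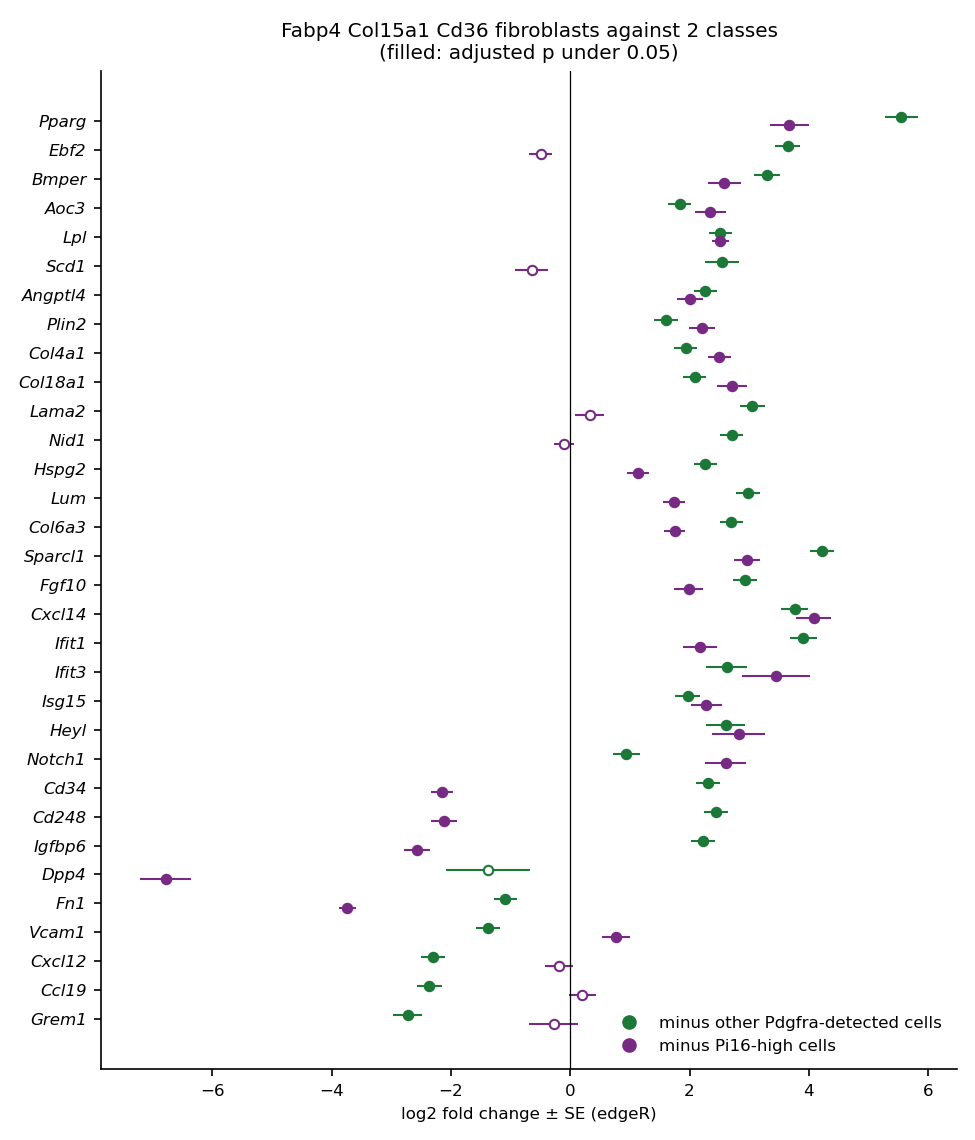
Log2 fold change ± SE of 32 genes outside the gate in Fabp4 Col15a1 Cd36 fibroblasts, against the other Pdgfra-detected cells (green) and against Pi16-high cells (purple); filled points have an edgeR adjusted p under 0.05. Lpl (2.52 and 2.51), Plin2, Col4a1, Sparcl1 and Cxcl14 are higher in both comparisons, and Cd34, Cd248 and Igfbp6 lie on opposite sides of 0.

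Interferon genes were higher than in Pi16-high cells too, 7 of 12 with 0 lower and a median of 1.47. Cxcl9, a chemokine induced by interferon gamma, stood at 1517, 823, 666 and 519 CPM against 46.6 to 232 CPM (3.14, SE 0.22), Ifit3 was higher by 3.45 (SE 0.57) and Isg15 by 2.28 (SE 0.26). Growth factors were higher in 5 and lower in 4 of 20 genes, among them Fgf10 (1.98, SE 0.25) and Hgf, the hepatocyte growth factor (2.10, SE 0.37). Immediate early genes, which respond to tissue digestion, were higher in 7 of 12 with 0 lower, and their part in the other differences was not tested. Pericyte genes were higher in 3 of 5 and smooth muscle genes in 3 of 5, among them Acta2 (2.29, SE 0.34) and Myh11 (2.26, SE 0.33), which stood at 0 to 16.5 CPM in the members of batch 1 and at 88.2 to 290 CPM in those of batch 2. With members under 10 Ccl21a UMIs, Acta2 was higher by 0.73 and Myh11 by 0.99, with adjusted p of 0.180 and 0.136 (edgeR). Over all alternatives the adjusted p ran up to 0.396 for Acta2 and 0.136 for Myh11.

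Against Ccl21a-high cells, set by the T-zone chemokine, the members held more Pparg, Lpl and basement membrane transcripts and less of the T-zone genes. Ccl21a-high cells are 18048 of the 29626 other Pdgfra-detected cells, so this comparison shares cells with the one above. Here 933 of 12798 genes were higher in the members (7.29%) and 1519 were lower (11.9%), with a median of -0.13. Scaling by library totals moved that median by 0.246 and the share of higher genes from 38.1% to 57.0%. Without control 2, 547 were higher and 730 were lower. Pparg was higher by 7.59 (SE 0.35), Lamc3 by 9.63 (SE 0.44), Sparcl1 by 6.86 (SE 0.23), Ebf2 by 5.86 (SE 0.25), Mfap5, a microfibril protein, by 5.05 (SE 0.22), Fgf10 by 4.85 (SE 0.23), Cd34 by 4.69 (SE 0.22), Lama2 by 4.68 (SE 0.23), Lum by 4.28 (SE 0.20) and Igfbp6 by 4.25 (SE 0.22). Lpl was higher by 2.61 (SE 0.18), at 390 to 738 CPM in Ccl21a-high cells. Of 15 basement membrane genes 13 were higher and 0 were lower, and of 13 T-zone genes 11 were lower and 0 were higher. The genes of the gate and Ccl21a were left out of this test. Both classes were set by Fabp4, and the Ccl21a-high cells also by Ccl21a. The counts therefore describe how far 2 gated classes lie apart and are no independent evidence of a type.

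Notch pathway genes were read in the same way, since the pathway is the one the study altered. Notch receptors are cleaved on ligand contact, and the freed intracellular part acts with RBPJ on targets such as Hes1 and Heyl. Against the other Pdgfra-detected cells 4 of 15 genes were higher and 2 were lower. Notch1 stood at 115, 77.1, 88.4 and 58.8 CPM against 49.6, 30.3, 41.4 and 25.1 CPM (0.94, SE 0.22), and Heyl, a transcriptional repressor of the pathway, at 49.5, 25.7, 60.6 and 37.8 CPM against 1.97 to 12.3 CPM (2.61, SE 0.33). Lfng, a glycosyltransferase that tunes which ligands a receptor answers to, was higher by 2.00 (SE 0.46) on 21 UMIs, with 0 UMIs in control 1, and by 1.23 with an adjusted p of 0.329 without control 2 (edgeR). It passed in 9 of 13 alternatives. Against Pi16-high cells 5 of 9 genes were higher, among them Notch1 (2.60, SE 0.34), Notch3 (2.57, SE 0.28) and Heyl (2.82, SE 0.45), and 3 were lower, among them Notch2 (-1.26, SE 0.29). Notch2 stood at 53.6, 82.7, 137 and 138 CPM in Pi16-high cells, and the lower level of the members was seen in 2 of 4 libraries, those of batch 2. Without control 2 its log2 fold change was -0.77 with an adjusted p of 0.371 (edgeR), the highest over its alternatives, of which 8 of 12 passed.

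The targeted gene was then compared between genotypes within the members. Notch2 (chromosome 3, 98013527 to 98150361, plus strand, mm10) had 4, 8, 27 and 23 UMIs in the 4 libraries, or 66.0, 103, 44.2 and 48.3 CPM. Over all members it was not lower in the cKO in either batch. The log2 fold change of cKO over control was 0.20 (SE 0.49) with an adjusted p of 0.999 (edgeR with batch as a term), and 0.64 and 0.04 within batches 1 and 2. In the members with fewer than 10 Ccl21a UMIs Notch2 stood at 56.7, 83.2, 40.1 and 38.2 CPM. Those levels rest on 3, 6, 20 and 9 UMIs, too few to be fitted. In the other Pdgfra-detected cells it stood at 39.8 and 18.7 CPM in batch 1 and at 58.0 and 39.2 CPM in batch 2, lower in the cKO in both. The difference between the members' genotype effect and that of the other cells was 0.96 (SE 0.49) with an adjusted p of 1.0 and an unadjusted p of 0.0524 (edgeR), so it was not shown. Over all genes 29 of 13931 had a higher genotype effect in the members than in the other cells (0.208%) and 9 a lower one (0.0646%). Genes of the gate that passed the filter were kept in this test, although they chose the members. Counts at the transcript's 3′ end check a deletion only where the deleted part holds that end, which the sources used here do not give, and whether the members ever used the Ccl19 promoter was not tested. Ccl19 UMIs were found in 4 of 21, 2 of 23, 48 of 68 and 25 of 41 members, and 67 of the 73 UMIs of control 1 lay in 1 cell. In the members with fewer than 10 Ccl21a UMIs Ccl19 stood at 113, 41.6, 178 and 110.5 CPM.

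Few genes changed between genotypes in the members, and no listed adipogenic, lipid, basement membrane or Notch gene passed the test. The genes that rose include Cilp, Apod and Igfbp6, and those that fell include Sox9. Between genotypes 18 of 4986 genes rose (0.361%) and 5 fell (0.100%) at an adjusted p under 0.05 (edgeR, batch as a term, 1 residual degree of freedom), and batches 1 and 2 gave 17 of these 23 the same direction. At an unadjusted p under 0.05 there were 144 and 164. DESeq2 called 0 genes (11 and 7 unadjusted) and the fit without batch as a term called 0 (27 and 29 unadjusted). With members under 10 Ccl21a UMIs edgeR called 0 (63 and 85 unadjusted), over 2934 genes that still passed the filter. Leaving out 1 library gave 1 and 0 genes without control 1, 37 and 17 without Notch2 cKO 1, 3 and 0 without control 2, and 0 and 0 without Notch2 cKO 2 (28 and 41 unadjusted). These fits with 1 library left out had no batch term, so they also mixed the 2 batches. The single library left in an arm was then assumed to vary like the other arm. No gene of the adipogenic list (13 tested), the lipid list (11 tested), the basement membrane list (13 tested) or the Notch list (8 tested) was called, and their median log2 fold changes were -0.29, -0.29, -0.27 and -0.60 beside 0.00 for all genes. Lpl, Pparg and Col4a1 were higher in the cKO of batch 1 and lower in the cKO of batch 2 than in the control of that batch. Lpl stood at 4749 and 6157 CPM in control and cKO of batch 1 and at 4153 and 2960 CPM in batch 2. In the same order Pparg stood at 33.0, 64.3, 157 and 149 CPM and Col4a1 at 2655, 2867, 1765 and 1614 CPM.

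Most of the genes that rose were carried by few members. Cilp, a matrix protein of cartilage and of stressed fibroblasts, had 0 and 1 UMIs in the controls and 8 and 80 in the cKO, and the ratio of the summed levels was 107 with a 95% counting interval of 18.7 to 4262. The members with fewer than 10 Ccl21a UMIs held 72115 of the 77794 member UMIs of Notch2 cKO 1 and 235327 of the 475957 of Notch2 cKO 2. Of the Cilp UMIs of the cKO, 5 of the 8 and 75 of the 80 lay in the members with at least 10 Ccl21a UMIs, 1 cell in Notch2 cKO 1 and 13 in Notch2 cKO 2. In the members with fewer, Cilp stood at 0, 41.6, 2.01 and 21.2 CPM, which is higher in the cKO of both batches. In the other Pdgfra-detected cells Cilp stood at 32.5 and 47.1 CPM in control and at 753 and 426 CPM in cKO. Sostdc1, a secreted BMP and Wnt antagonist, had 1, 5, 2 and 31 UMIs, a ratio of 14.6 (4.60 to 73.9), and 25 of the 31 lay in those members. The same members held 57 of the 59 Chl1 UMIs, 57 of the 57 Pdlim3 UMIs and 116 of the 132 Tmtc2 UMIs of Notch2 cKO 2. Levels in the members with fewer than 10 Ccl21a UMIs follow by library. Chl1 stood at 0, 0, 2.01 and 8.50 CPM, Pdlim3 at 0, 0, 2.01 and 0 CPM. Sostdc1 stood at 0, 27.7, 2.01 and 25.5 CPM and Tmtc2 at 0, 27.7, 36.1 and 68.0 CPM. Sostdc1, Chl1, Pdlim3 and Tmtc2 were, like Cilp, at higher levels in the cKO of both batches in the other Pdgfra-detected cells, where Chl1, a neural adhesion molecule, stood at 31.8 and 42.5 CPM in control and 78.1 and 162 CPM in cKO.

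Several other genes that rose showed this split, less strongly for Chka than for Il33. Chka, a choline kinase, stood at 0 and 68.8 CPM in the controls and 25.7 and 298 CPM in the cKO (log2 2.08, SE 0.53, edgeR adjusted p 0.0286), with 98 of 142 UMIs of Notch2 cKO 2 in those members. Il33, an alarmin cytokine, stood at 0 and 80.2 against 64.3 and 303 CPM (1.98, SE 0.52, edgeR adjusted p 0.0346), with 134 of 144 UMIs there. In the members with fewer Ccl21a UMIs, Chka stood at 0 and 64.2 CPM in the controls and 27.7 and 187 CPM in the cKO. Il33 stood there at 0 and 30.1 against 55.5 and 42.5 CPM. Sfrp1, a secreted Wnt inhibitor, stood at 33.0 and 27.8 against 206 and 109 CPM (2.06, SE 0.54, adjusted p 0.0346), and in the members with fewer Ccl21a UMIs at 0 and 24.1 against 222 and 42.5 CPM. Csf2rb, a shared cytokine receptor chain, stood at 82.5 and 90.0 against 154 and 435 CPM (1.88, SE 0.48, adjusted p 0.0286), and at 37.8 and 36.1 against 139 and 161 CPM in the members with fewer. Without those members the log2 fold change of Csf2rb was 2.02 with an adjusted p of 0.656 (edgeR), and over all its alternatives the adjusted p ran from 0.0165 to 1.0. Chka, Il33, Sfrp1 and Csf2rb were also at higher levels in the cKO of both batches in the other Pdgfra-detected cells, where Csf2rb stood at 641 and 531 CPM in control and 896 and 897 CPM in cKO.

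Apod and Igfbp6 also rose, and in Notch2 cKO 2 207 of 238 Apod UMIs but 52 of 242 Igfbp6 UMIs lay in the members with at least 10 Ccl21a UMIs. Apod, a lipocalin that binds small lipids, stood at 214 and 108 CPM in the controls and at 913 and 500 CPM in the cKO, so it was higher in the cKO of both batches (2.13, SE 0.43, edgeR adjusted p 0.000583). In the members with fewer than 10 Ccl21a UMIs it stood at 246, 721, 118 and 132 CPM, and the log2 fold change was 0.76 with an adjusted p of 0.953 (edgeR). It passed in 4 of 13 alternatives, with adjusted p from 2.59e-06 to 1.0. Igfbp6, which binds insulin-like growth factor II, stood at 181, 874, 214 and 508 CPM (1.61, SE 0.42, adjusted p 0.0346). In the members with fewer it stood at 208, 818, 251 and 807 CPM, again higher in the cKO of both batches, at a log2 fold change of 1.76 and an adjusted p of 0.656 (edgeR). Its log2 fold change ran from 1.27 to 2.23 over 13 alternatives, of which 3 passed, with adjusted p from 0.0102 to 1.0.

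Of the genes that fell, 35 of 39 Sox9 UMIs and 154 of 184 Hspa1b UMIs of control 2 lay in members with fewer than 10 Ccl21a UMIs. Those members held 498654 of the 610909 UMIs of all members there, so both splits lie near the share of all transcripts. Sox9, a transcription factor of cartilage and precursor cells, stood at 98.9 and 63.8 CPM in the controls and at 0 and 16.8 CPM in the cKO (-2.33, SE 0.62, edgeR adjusted p 0.0374), on 6, 39, 0 and 8 UMIs, and passed in 1 of 10 alternatives. Polr2k, an RNA polymerase subunit, stood at 115, 12.9, 75.3 and 16.8 CPM (-2.36, SE 0.58, adjusted p 0.0213). In the other Pdgfra-detected cells Polr2k was also lower in Notch2 cKO 2, at 30.5 CPM against 86.4, but not in batch 1, at 80.1 against 86.1. Arc (-2.19, SE 0.57, adjusted p 0.0330) and the heat shock gene Hspa1b (-2.12, SE 0.52, adjusted p 0.0203), both of which respond quickly to stimulation or handling, fell mainly in batch 2, where their within-batch values were -2.41 and -2.36 against -0.28 and -0.58 in batch 1. Angptl1, 1 of the 6 genes of the gate, stood at 132, 103, 108 and 8.40 CPM and so was low in Notch2 cKO 2 alone. It is counted among the 5 that fell, but since it helped to choose the members its values are a description.

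Of the genes that rose, Cd74, Grem1, Fgf14, Hdac9, Nxph1 and Pcdh15 did not keep their sign across batches, the last 4 named here after their values were seen. Cd74 stood at 98.9, 12.9, 22.9 and 544 CPM and Grem1 at 16.5, 12.9, 44.2 and 282 CPM, high in Notch2 cKO 2 alone, where 210 of 259 and 122 of 134 UMIs lay in the members with at least 10 Ccl21a UMIs. Notch3, a receptor of mural and perivascular cells, stood at 280, 64.3, 193 and 98.7 CPM, lower in the cKO of both batches, but did not pass the test (-1.34, SE 0.46, adjusted p 0.279, edgeR). In the other Pdgfra-detected cells it stood at 145, 21.8, 152 and 49.4 CPM.

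**Figure D5:**
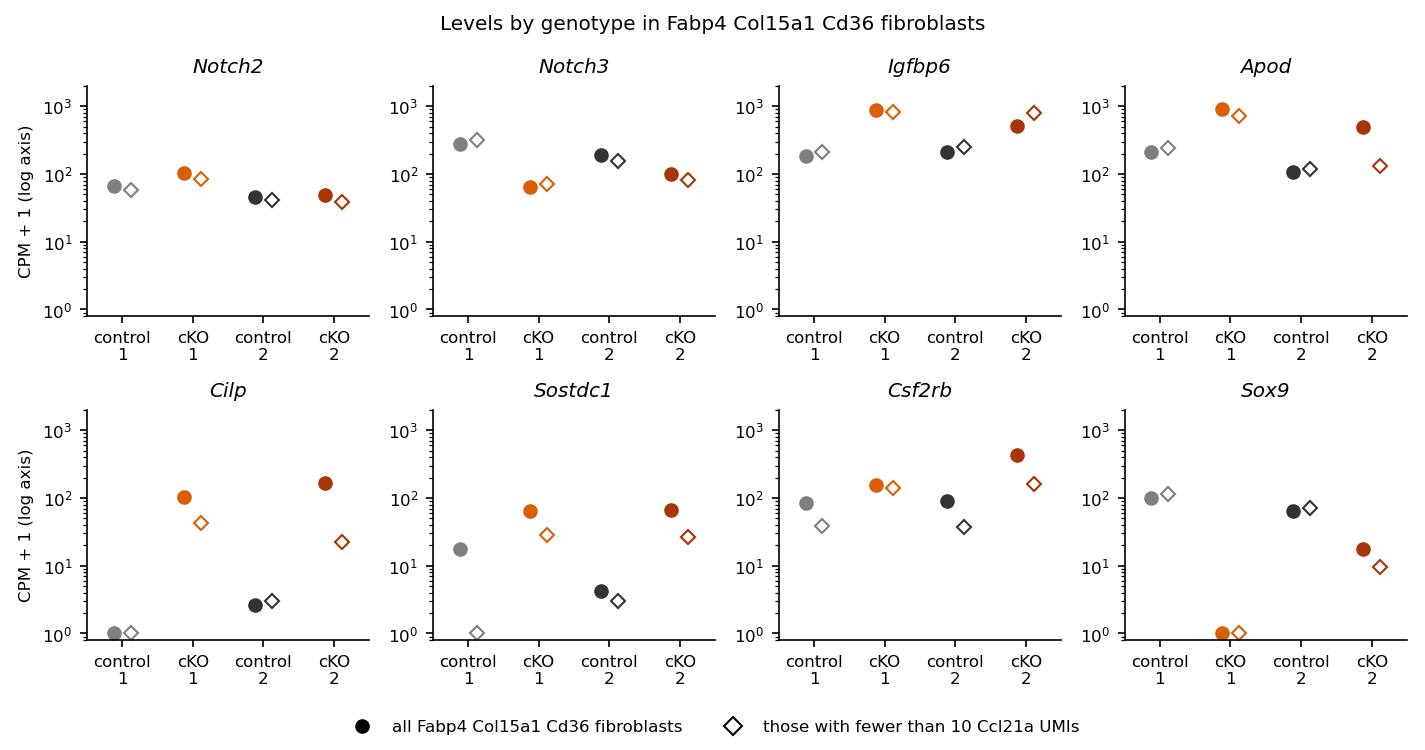
Levels of 8 genes in the Fabp4 Col15a1 Cd36 fibroblasts of each library, as CPM + 1 on a log axis; filled circles are all members and open diamonds the members with fewer than 10 Ccl21a UMIs. Over all members Notch2 lies between 44.2 and 103 CPM and is not lower in the cKO of either batch. Igfbp6 is higher in the cKO of both batches with either set of members, and Apod in Notch2 cKO 2 drops from 500 to 132 CPM when the members with at least 10 Ccl21a UMIs are left out.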

How the data were processed

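The authors deposited raw UMI counts per gene and barcode, and the file headers record Cell Ranger 5.0.1 for batch 1 but 7.1.0 for batch 2, so CPM may not be comparable between batches (the labels and headers do not say whether intronic reads were counted). The submitters' processing notes name 5.0.1 and mm10. Members and lists were chosen with earlier results of these data known. Sums of counts over each class of a library were compared by edgeR 4.0.16 (R 4.3.3; TMM, filterByExpr, quasi-likelihood test, Benjamini-Hochberg threshold 0.05), after a check on simulated data. Genotype fits had batch as a term, except those with 1 library left out, and class fits had the library. The labels state that replicate numbers mark the batch, so they pair the libraries. Shares were compared with exact permutation tests (scipy 1.17.1). Doublet scores came from Scrublet (scanpy 1.11.5), whose automatic threshold called 0, 1, 514 and 0 cells, so the highest 0.8% per 1000 cells were taken and kept in the main results. Genes were named if past the test with 1 sign in every library or batch and at least 50 CPM (20 between genotypes), taking the largest 12, 8 or 10 per direction, plus Notch2, gate genes and list members. Predicted, ribosomal, mitochondrial and haemoglobin genes were passed over. Alternatives included DESeq2 1.42.0, and a split at 10 Ccl21a UMIs was chosen after seeing the data. The result of a single gene of the interferon list is not reported here.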

Additional observations from a re-analysis of the deposited data

Results flagged for a closer look

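In 17 genes named above, leaving out Fabp4 of the gate, the change between genotypes differed between the Fabp4 Col15a1 Cd36 fibroblasts and the other Pdgfra-detected cells, by a test of that difference (edgeR interaction term, adjusted p under 0.05). Of 13931 genes, with genes of the gate not left out, 29 had a higher genotype effect in the members (0.208%) and 9 a lower one (0.0646%). DESeq2 called 0 and 2 (46 and 34 unadjusted). The interaction fit had 1 residual degree of freedom, so its p-values rest largely on the spread moderated over all genes. Without the class by batch term it called 22 genes, 10 of them shared with the 38 of the main fit. Cxcl14 differed by -3.60 (SE 0.30, edgeR adjusted p 1.89e-28). In the other cells it stood at 9.44 and 4.07 CPM in the controls and 70.3 and 52.5 CPM in the cKO, while the members stood at 775 and 196 CPM in the controls and 566 and 179 CPM in the cKO. It passed in 8 of 9 alternatives, DESeq2 among them (adjusted p 3.56e-07). It did not pass without cells that had an endothelial or pericyte marker (-1.20, edgeR adjusted p 0.399). That alternative kept only 18, 19, 19 and 13 members and 1104, 1768, 617 and 500 of the other cells. Bmper, a BMP modulator, differed by -2.01 (SE 0.33, adjusted p 2.78e-06), with log2 changes of cKO over control of 1.19 and 1.44 in the other cells of batches 1 and 2 and of 0.47 and -0.84 in the members.

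Hes1, a Notch target, differed by 1.36 (SE 0.34, edgeR adjusted p 0.0265). It stood at 231, 180, 193 and 126 CPM in the members and at 203, 75.1, 212 and 51.4 CPM in the other cells, so its drop in the cKO was smaller in the members. Igfbp6 differed by 1.31 (SE 0.30, adjusted p 0.00981), being higher in the cKO members of both batches, and Sox9 by -2.64 (SE 0.61, adjusted p 0.00981), being lower in the cKO members of both batches. In the other cells Igfbp6 stood at 35.0, 100, 75.8 and 65.1 CPM and Sox9 at 31.0, 77.1, 37.7 and 43.3 CPM. Cd248 differed by 1.37 (SE 0.36, adjusted p 0.0417) and Igkc by -3.74 (SE 0.84, adjusted p 0.00760), the latter on 18 UMIs in all members.

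Apod differed by 1.88 (SE 0.31, edgeR adjusted p 3.44e-06), Grem1 by 1.87, Cd74 by 1.80, Csf2rb by 1.36, H2-Ab1 by 2.06 and Ptgs2 by 3.74. In Notch2 cKO 2 the members with fewer than 10 Ccl21a UMIs held 235327 of the 475957 member UMIs. Of its UMIs of these genes the members with at least 10 Ccl21a UMIs held 207 of 238 for Apod, 122 of 134 for Grem1, 210 of 259 for Cd74, 169 of 207 for Csf2rb, 77 of 92 for H2-Ab1 and 33 of 38 for Ptgs2. Without those members of all 4 libraries the difference was 0.28 for Apod, 0.31 for Grem1, 1.41 for Cd74, 1.37 for Csf2rb, 1.97 for H2-Ab1 and 2.09 for Ptgs2. None of the 6 then passed (edgeR adjusted p 0.210 to 1.0), while Cxcl14, Bmper, Hes1, Igfbp6, Sox9, Cd248, Igkc, Fgf14 and Pcdh15 still passed with the same sign. Fgf14 differed by 1.98, Hdac9 by 1.35, Nxph1 by 1.70 and Pcdh15 by 1.38, and in batch 1 each of these 4 had at most 1 UMI in the members of a library.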

How the results depend on the processing

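Directions of named genes were compared over the alternatives: members against the other cells, Pi16-high cells and Ccl21a-high cells gave 758, 525 and 309 gene values on the same side of the threshold and 27, 14 and 3 past it no longer. Between genotypes 80 were on the same side and 117 were no longer past it. Notch2 reversed to -0.056 without Notch2 cKO replicate 1 (up to 0.54 with another library left out), in fits without a batch term. The interaction gave 89 and 68, and without marker-bearing cells it reversed for Apod (-0.065), Cd74 (-4.53), Grem1 (-8.98), H2-Ab1 (-7.28) and Hdac9 (-2.32), none of them past the threshold. Genes without enough counts under an alternative could not be fitted there.

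Counts are given as higher and lower genes. Between genotypes (18 and 5) DESeq2 gave 0 and 0, the stricter cell filter 10 and 0, Fabp4 of at least 3 gave 3 lower, removal of high Scrublet scores 2 and 3, of cells with an endothelial or pericyte marker 0 and 1 (34 and 25 unadjusted), of members with at least 10 Ccl21a UMIs 0 and 0, and leaving out 1 library 0 to 37 and 0 to 17. Against the other cells (788 and 1429) library totals gave 1185 higher, DESeq2 463 and 713, removal of marker-bearing cells 324 higher, and leaving out 1 library 468 to 750 and 682 to 1230. Against Pi16-high cells (398 and 651) DESeq2 gave 226 and 366, removal of marker-bearing cells 172 and 235, and leaving out 1 library 169 to 427 and 261 to 616. Against Ccl21a-high cells (933 and 1519) DESeq2 gave 613 and 791, removal of marker-bearing cells 519 higher, and leaving out 1 library 547 to 909 and 730 to 1220. For the interaction (29 and 9) DESeq2 gave 0 and 2 (46 and 34 unadjusted), Fabp4 of at least 3 gave 18 higher, removal of marker-bearing cells 5 and 16, of high Scrublet scores 17 lower, of members with at least 10 Ccl21a UMIs 28 lower, and no class by batch term 14 higher. Removal of marker-bearing cells left 1122, 1787, 636 and 513 of the 4905, 6373, 10179 and 8322 Pdgfra-detected cells. The share difference moved to -0.497 percentage points without marker-bearing cells, against -0.241 to -0.00135 with 1 library left out. The cause of these moves was not tested.

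Without the replicate block, which here is the batch or library the labels give, the counts were 0 and 0 between genotypes, 194 and 97 against the other cells, 111 and 231 against Pi16-high cells and 333 and 221 against Ccl21a-high cells. The members of batch 1, 21 and 23 cells, limit what can be seen for genes of low level.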
